A study of Mus musculus with 10 samples.

Results

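The G proteins, cAMP and calcium second messengers described here are the genes that carry a signal from a G protein-coupled receptor into the cell. They were chosen by gene symbol: alpha, beta and gamma subunits of G proteins, RGS proteins, receptor kinases, adenylyl cyclases, phosphodiesterases, subunits of protein kinase A, phospholipases C, protein kinases C, calmodulins and their kinases, and calcineurin. The choice took in 67 of the 4605 named genes on the array, with 68 of its 5030 probes, since Gnas has 2. It used no measured value. Of these genes Adcy6, an adenylyl cyclase, was higher after every challenge than after saline in both genotypes, and it was the single member that passed a test across arrays.

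A receptor of this class, once active, makes an alpha subunit of its G protein exchange GDP for GTP and part from the beta-gamma dimer. Gs and Gi subunits raise or lower the making of cAMP by adenylyl cyclases, and cAMP acts through protein kinase A until phosphodiesterases break it down. Gq subunits activate phospholipase C, whose products release calcium and activate protein kinase C. PAR1, the thrombin receptor, is known to couple to Gq, Gi and G12/13, and the receptor of substance P to Gq. In the bladder, cAMP is known to relax the detrusor muscle and calcium to contract it.

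Expression was measured in urinary bladders of PAR1-/- mice, which lack this receptor and had been bred toward the C57BL/6J background, and of WT mice of that strain. Bladders of anaesthetised female mice were filled with lipopolysaccharide of Escherichia coli strain 055:B5 (LPS, 100 µg/ml), with substance P (SP, a neuropeptide) or with saline, and taken at 24 h or 4 h after LPS and SP and at 24 h after saline. The labels give SP as 20 µM for PAR1-/- and 10 µM for WT mice, while the methods state the WT dose throughout. All 10 conditions were given 1 array each, of RNA pooled from 8 bladders, so that the spread between animals was not measured and the early arrays had saline of another time as their reference.

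The deposited values were scores standardised within each probe, from which whole-number spot intensities were recovered for 65 of the 68 probes (4787 of 5030 in all). Plcd1, Rgs17 and Rgs4 were the exceptions. A probe was taken as above background on an array where its intensity exceeded the mode of that array's background by 3 SD, a threshold that lay between 12.2 and 33. Total intensity per array ran from 69306 to 278656, and the arrays were brought to a common scale by regression. The values on that scale are called normalized levels, and they compare arrays for 1 probe and never 1 probe with another. The 24 h LPS array of WT bladders stood apart, with 86.4% of all probes and 56 of the 65 member probes at the same value of 15, and 12% of probes above background against 30.2 to 47.1% on the other arrays. The probe of F2r, the gene of PAR1, had intensities of 18 and 17 after LPS at 24 h and 4 h, 21 and 51 after SP at 24 h and 4 h, and 11 after saline in PAR1-/- bladders. The WT values were 15, 195, 11, 22 and 10 in the same order. F2r was above background on 2 PAR1-/- arrays, so the probe did not separate the genotypes, and its place relative to the deleted sequence is not known here.

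Few members gave a signal everywhere. On at least 1 array, 40 of the 65 probes (61.5%) were above background, against 65.6% of all probes, and 25 were above it on none. The 9 probes above it on all 10 arrays were those of Adcy6, Gna15, Gnb2, Pde7b, Pde9a, Prkar1b, Prkcb, Prkcd and Prkch (13.8% of the member probes, against 10.5% of all). The 22 members above background on at least 4 arrays (33.8%, against 42.1% of all probes) entered the tests. Since whole bladders were used, fewer cells of a type and less RNA per cell cannot be told apart in any of these values.

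**Figure D1:**
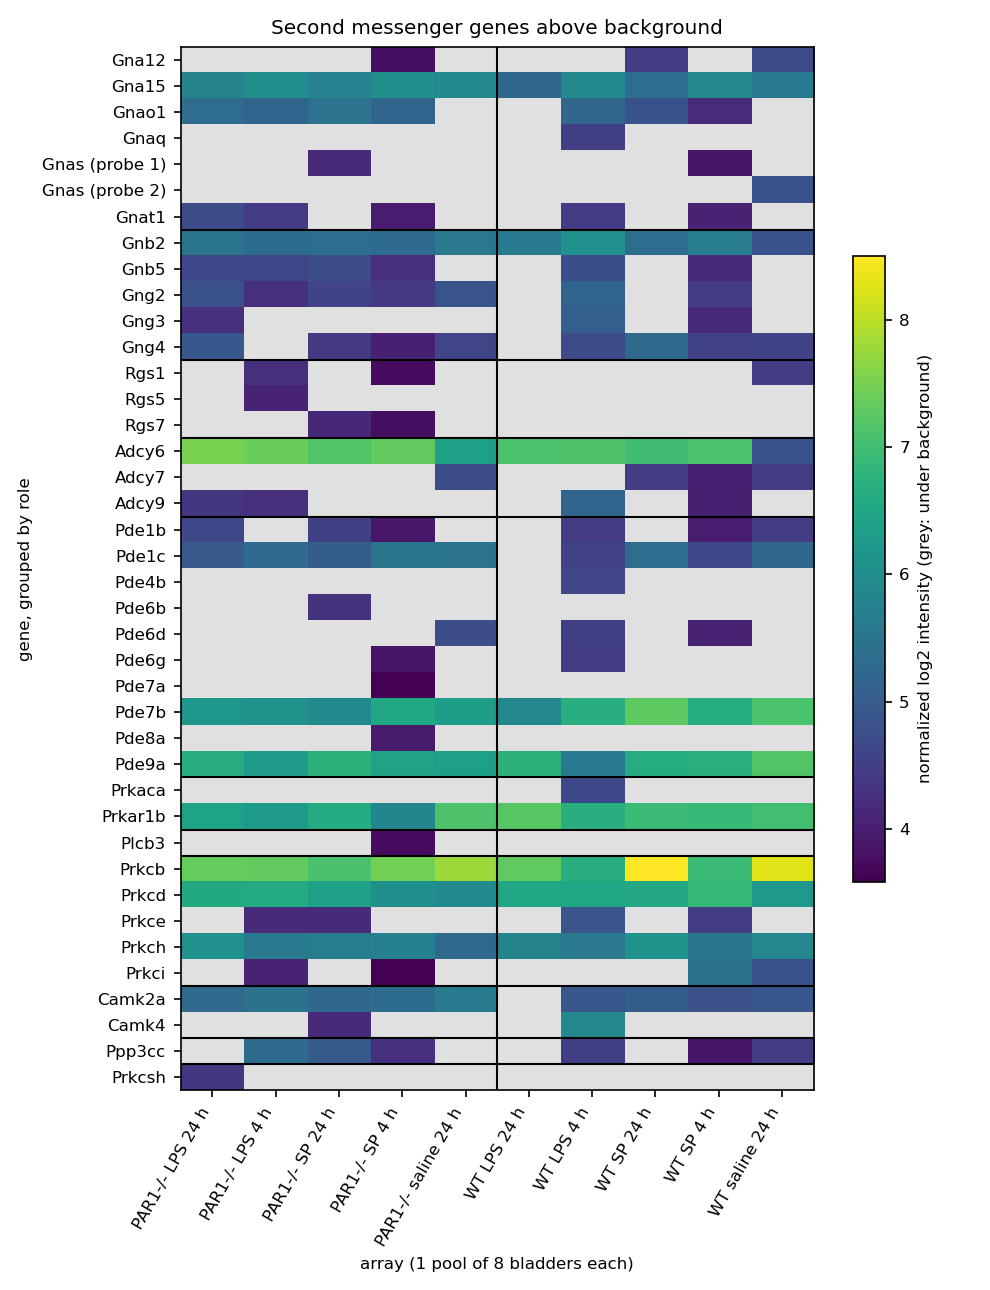
Normalized log2 intensity of the 40 member probes above background on at least 1 array (rows, grouped by role) on the 10 arrays (columns, PAR1-/- left of WT). Grey cells were under background; among the WT columns LPS at 24 h shows 9 coloured cells and LPS at 4 h 27.

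Among the alpha subunits, the partners known for PAR1 and for the SP receptor gave little or no signal. Gna11 and Gna13, a Gq-class and a G12-class subunit, were under background on every array. Gnaq, the Gq subunit itself, passed it on a single array, that of WT bladders 4 h after LPS, with an intensity of 23 against at most 15 on the others. Gna12 passed the threshold on 3 arrays, with intensities of 29 (PAR1-/-, SP at 4 h), 13 (WT, SP at 24 h) and 15 (WT, saline). No difference between groups can be read from these genes at this signal. Gnai1 to Gnai3 were not analysed here.

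Gna15, a Gq-class subunit best known from blood cells, was the 1 alpha subunit above background on all 10 arrays. Its normalized levels were 54.8 and 64.4 after LPS at 24 h and 4 h, 54.6 and 64.3 after SP at 24 h and 4 h, and 60.2 after saline in PAR1-/- bladders. WT bladders had 37.8 and 60.5 after LPS, 41.4 and 60.1 after SP, and 48.6 after saline. The lower WT values were those at 24 h, and the genotypes overlapped. The genotype difference was 0.29 on the log2 scale (SE 0.20, limma adjusted p = 0.518).

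Gnao1, the Go subunit abundant in neurons, exceeded background on each of the 4 challenged PAR1-/- arrays, with intensities of 45 and 42 after LPS and 54 and 86 after SP, and was under it after saline, at 12. WT bladders showed it above background with LPS at 4 h (38) and SP at 24 h and 4 h (16 and 31), and under it with LPS at 24 h (15) and saline (11). Against the saline threshold the normalized level was therefore at least 1.79 and 1.60 times higher after LPS and at least 1.95 and 1.60 times higher after SP in PAR1-/- bladders. In WT bladders it was at least 1.73 times higher after LPS at 4 h and at least 1.33 times higher after SP at 24 h. SP at 4 h gave no ratio there, with a normalized level of 18.5 against 18.3 after saline, under the saline threshold of 21.3. The challenge difference over all 10 arrays was 0.59 (SE 0.30, limma adjusted p = 0.516) and did not pass. The WT array of LPS at 24 h, under background, entered that test at its threshold, a normalized level of 32.1. The 2 probes of Gnas, the Gs subunit, passed the threshold on 2 arrays and on 1 array, none of them the same, and their log2 intensities correlated with r = 0.52 over the 10 arrays, so no level of Gnas is given.

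Gnb2, a widely expressed beta subunit, had opposite directions in the genotypes after normalization. Its normalized levels in PAR1-/- bladders were 44.3 and 40 after LPS at 24 h and 4 h, 41.1 and 39.5 after SP at 24 h and 4 h, and 46.8 after saline. Those of WT bladders were 49.3 and 67.1 after LPS, 41.4 and 50.3 after SP, and 28.5 after saline. All 4 challenged PAR1-/- arrays were thus a little under their saline array, at 0.844 to 0.946 of it, and all 4 WT arrays were over theirs, at 1.45 to 2.35 times its level. The WT saline array was the lowest of the 10. The interaction of genotype and challenge was -1.03 (SE 0.57, unadjusted p = 0.0886, limma adjusted p = 0.984) and did not pass.

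The direction of Gnb2 in PAR1-/- bladders depended on the normalization. The intensities themselves were 50 and 47 after LPS, 50 and 95 after SP and 22 after saline in PAR1-/- bladders, which gives ratios of 2.27, 2.14, 2.27 and 4.32. In WT bladders they were 48 and 70 after LPS, 22 and 95 after SP and 16 after saline. Before normalization every challenged array of both genotypes was over its saline array.

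The remaining dimer subunits were near background. Gng4 was above it on 8 arrays, Gng2 on 7, Gnb5 on 6 and Gng3 on 3, and Gnb1 and Gnb4 on none. Gng4, a gamma subunit, had intensities of 32 and 14 with LPS at 24 h and 4 h, 24 and 35 with SP and 13 with saline in PAR1-/- bladders, and of 15 and 27 with LPS, 21 and 40 with SP and 14 with saline in WT bladders. Gnb5, a beta subunit that pairs with some RGS proteins, was above background on the 4 challenged PAR1-/- arrays (26, 28, 31 and 42) and on the WT arrays at 4 h (28 with LPS and 30 with SP), and under it on both saline arrays (10 in PAR1-/- and 9 in WT). Gng4 had a genotype difference of -0.43 (SE 0.21, limma adjusted p = 0.395) and Gng2 one of -0.09 (SE 0.23, adjusted p = 0.869).

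No gene of an RGS protein or of a receptor kinase could be tested. Of 8 RGS genes, whose products speed up GTP hydrolysis by alpha subunits, 6 had intensities, 3 passed the threshold on at least 1 array and none on 4, so none was tested. Rgs2, a regulator of Gq signalling, was under background on all 10 arrays, as were Rgs9 and Rgs14. Rgs1 was above background on 3 arrays, at intensities of 21 (PAR1-/-, LPS at 4 h), 28 (PAR1-/-, SP at 4 h) and 13 (WT, saline). The receptor kinases Grk1, Grk4 and Grk6 were under background throughout.

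Rgs4, a regulator of Gq and Gi signalling found in smooth muscle and brain, had no accepted intensities and is described by its deposited scores. A score is comparable between arrays within 1 probe and has no unit. In PAR1-/- bladders the scores were 1.140 and 1.066 after LPS at 24 h and 4 h, 1.230 and 1.264 after SP at 24 h and 4 h, and 0.728 after saline. The WT values were 0.859 and 1.165 after LPS, 0.787 and 1.268 after SP, and 0.728 after saline. Every challenged array was above its saline array, and the WT arrays at 24 h were the lowest of the challenged ones. The scores are not normalized between arrays, and the saline arrays were among the dimmest.

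The adenylyl cyclases, which make cAMP, held the single call. Adcy6, a cyclase that Gs stimulates and calcium inhibits, had intensities of 260 and 224 after LPS at 24 h and 4 h, 206 and 452 after SP at 24 h and 4 h, and 35 after saline in PAR1-/- bladders. WT bladders had 119 and 149 after LPS, 57 and 295 after SP, and 16 after saline. The saline arrays were the lowest of each genotype, and no challenged array overlapped with either of them.

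After normalization Adcy6 kept this order with a narrower spread. Its normalized levels were 184, 167, 144 and 159 on the challenged PAR1-/- arrays (LPS at 24 h and 4 h, SP at 24 h and 4 h) and 82.9 after saline. On the WT arrays they were 139, 140, 128 and 139 in that order of conditions and 28.5 after saline. The challenged arrays thus lay within 144 to 184 in PAR1-/- and within 128 to 140 in WT bladders, and the saline arrays of the genotypes lay farther apart than these ranges.

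Adcy6 rose by 1.62 on the log2 scale with challenge (SE 0.30, 3.06-fold, limma adjusted p = 0.0259), being higher on 8 of 8 challenged arrays than on the saline array of its genotype. It was the 1 member of 22 past an adjusted p of 0.05 in this test, which called 2 of all 2017 probes (0.0992%). The 8 challenged arrays share 2 saline arrays, both taken at 24 h. Without the 24 h LPS array of WT bladders the difference was 1.59 (limma adjusted p = 0.0433), while leaving out both LPS arrays at 24 h ended the call (1.58, limma adjusted p = 0.0719), and over all 14 alternatives the adjusted p ran from 0.000926 to 0.163, with 5 of them not past 0.05.

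Against saline the normalized level of Adcy6 was 2.22 and 2.02 times as high after LPS at 24 h and 4 h and 1.73 and 1.92 times as high after SP in PAR1-/- bladders. In WT bladders it was 4.88 and 4.91 times as high after LPS and 4.49 and 4.86 times as high after SP. The WT ratios were all above the PAR1-/- ratios, and the stimuli and times gave nearly the same ratio within a genotype. The interaction was -1.28 (SE 0.55, unadjusted p = 0.0311, limma adjusted p = 0.984) and did not pass, as no probe of 2017 did (0%, with 62 probes at an unadjusted p under 0.05). Without normalization it was -0.08, and the 8 ratios ran from 3.56 to 18.4.

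On the normalized scale the difference between the genotypes' ratios of Adcy6 lay mainly in the saline arrays. Without normalization the ratios of the genotypes overlapped, and the interaction was -0.08. The saline intensities were 35 in PAR1-/- and 16 in WT bladders, the latter near that array's background threshold of 12.5. After saline the PAR1-/- level was 2.90 times the WT level, a log2 difference of 1.54, where the SD over the 1126 probes above background on both saline arrays was 0.46 and 99.4% of these probes had a lower difference. With 1 array each this difference has no replicate check. Over the 5 pairs of conditions the genotype difference of Adcy6 was 0.51 (SE 0.24, limma adjusted p = 0.379).

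Before normalization other signals differed between challenged and saline arrays as well, in total and in sums over markers. Total intensity was higher on all 8 challenged arrays, at 73505 to 278656, than on the saline arrays, at 69306 and 72339. Of 8 listed markers of smooth muscle, which makes up much of the bladder wall, 6 were on the array, with summed intensities between 230 and 1244 on the challenged arrays against 153 to 220 on the saline arrays. Myh11, the smooth muscle myosin heavy chain, had a challenge difference of 0.94 on the normalized scale (unadjusted p = 0.00942), and none of the 6 passed after adjustment. Smtn and Tagln had differences of 0.41 and 0.13, and Acta2, Cnn1 and Actg2 differences of -0.61, -0.19 and -0.08, so the list had no common direction. Smtn and Acta2, a smoothelin and an actin of this muscle, were above background on all arrays. Of the urothelial markers Krt18, Upk2 and Krt19 were on the array, with sums of 35 to 90 on challenged against 31 to 33 on saline arrays. After normalization Upk2 and Krt19 had challenge differences of -0.06 and -0.15, and Krt18 was not tested. The 8 leukocyte markers with values summed to 96 to 221 on challenged against 92 to 110 on saline arrays, with Cd3e, Cd14, Cd68 and S100a8 under background throughout. On the normalized scale the 4 tested leukocyte markers had challenge differences of -0.82 (Csf1r, unadjusted p = 0.0107), -0.53 (S100a9), -0.39 (Ptprc) and -0.02 (Itgb2), none past the adjusted threshold. The part of these signals in the Adcy6 difference was not tested.

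**Figure D2:**
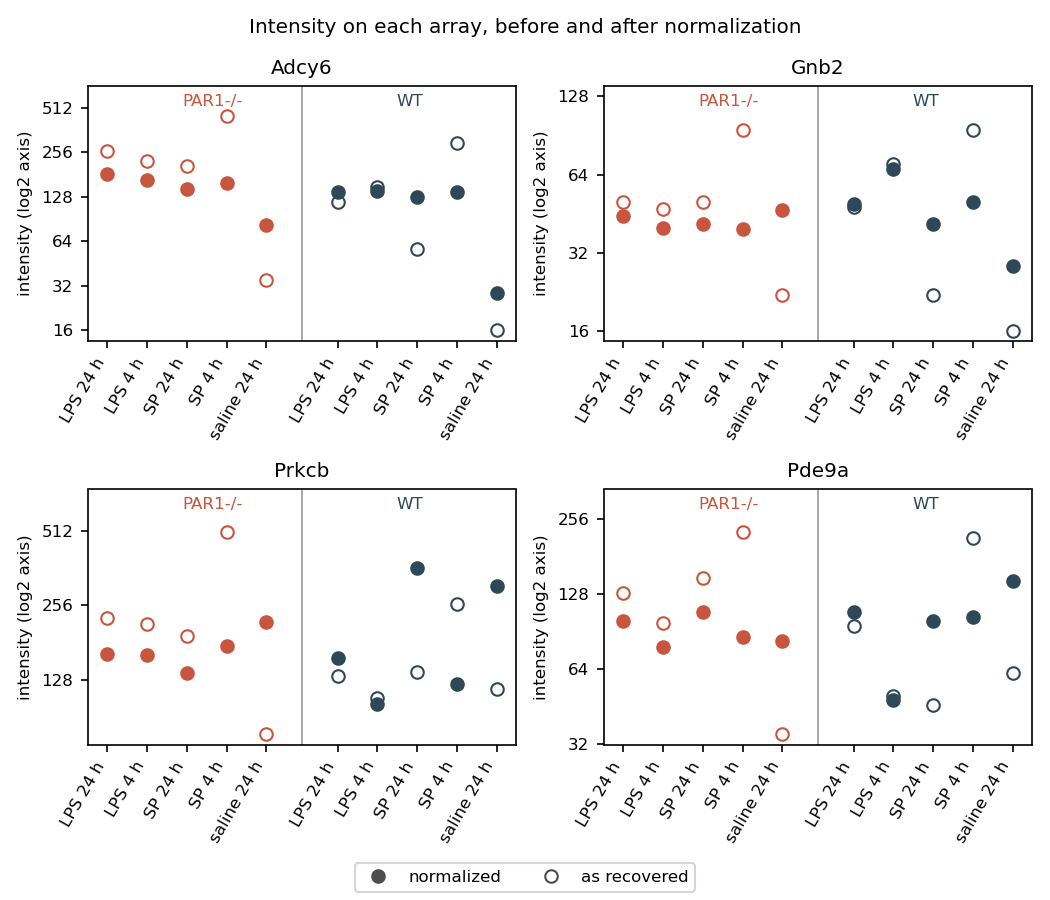
Intensities (open circles, as recovered) and normalized levels (filled circles) of Adcy6, Gnb2, Prkcb and Pde9a on each array, on a log2 axis, PAR1-/- left and WT right. The saline array of each genotype is the lowest for Adcy6 before and after normalization, while for Prkcb in PAR1-/- bladders it is the lowest before (77) and the highest after it (219).

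The other cyclases were close to background. Adcy9, a cyclase little affected by forskolin, had intensities of 21 and 21 after LPS at 24 h and 4 h, 17 and 23 after SP at 24 h and 4 h, and 9 after saline in PAR1-/- bladders. Those of WT bladders were 15 and 37 after LPS, 12 and 27 after SP, and 12 after saline. It was above background on 4 arrays, 3 of LPS and 1 of SP. Its difference of LPS minus SP was 0.69 (SE 0.22, limma adjusted p = 0.319). Values under background entered the tests at the threshold of their array. Adcy9 was under background on both WT arrays at 24 h, so that pair compared thresholds alone. These were normalized levels of 32.1 for LPS, on the array that stood apart, and 20.5 for SP. With values under background left as they were, the difference was 0.43.

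Adcy7 was above background on 4 arrays as well, at intensities of 14 (PAR1-/-, saline), 13 (WT, SP at 24 h), 27 (WT, SP at 4 h) and 13 (WT, saline). After challenge its normalized level in PAR1-/- bladders was at most 0.7 and 0.615 of that after saline with LPS at 24 h and 4 h, and at most 0.65 and 0.435 of it with SP. The intensities there were 15 and 16 with LPS and 15 and 23 with SP, so without normalization the ratios were 1.07, 1.14, 1.07 and 1.64 and the direction turned. Adcy8, a cyclase that calcium stimulates, was under background on every array.

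Phosphodiesterases, which break down cAMP or cGMP, were the largest group with 14 genes, of which 10 gave a signal on some array and 4 were tested. Pde9a, a cGMP-specific enzyme, had normalized levels of 100 and 78.5 after LPS at 24 h and 4 h, 108 and 86 after SP, and 82.9 after saline in PAR1-/- bladders. In WT bladders they were 108 and 48.3 after LPS, 99.4 and 104 after SP, and 144 after saline. All 4 WT arrays lay under their saline array, at 0.336 to 0.749 of it, whereas the PAR1-/- arrays lay on both sides of theirs, at 0.946 to 1.30. The lowest was the 4 h LPS array of WT bladders. Before normalization the WT ratios ran across 1, from 0.742 to 3.47. The PAR1-/- ratios were then all over 1, at 3.69 and 2.80 with LPS at 24 h and 4 h and 4.26 and 6.49 with SP.

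Pde7b, a cAMP-specific enzyme, had normalized levels of 72.8 and 69.6 after LPS at 24 h and 4 h, 60.2 and 91.7 after SP, and 80 after saline in PAR1-/- bladders. The WT values were 58.8 and 102 after LPS, 155 and 99.7 after SP, and 138 after saline. WT was higher in 4 of the 5 conditions, the exception being LPS at 24 h, on the array that stood apart. The genotype difference was -0.50 (SE 0.25, limma adjusted p = 0.392).

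Pde1c and Pde1b, which calcium-bound calmodulin activates, were above background on 9 and 6 arrays. Pde1c had intensities of 33 and 46 after LPS, 39 and 111 after SP, and 21 after saline in PAR1-/- bladders, and of 15 and 24 with LPS, 22 and 43 with SP, and 20 with saline in WT bladders. Its genotype difference was 0.29 (SE 0.23, limma adjusted p = 0.557). Pde1b had one of -0.13 (SE 0.20, limma adjusted p = 0.772) and a difference of 24 h minus 4 h of 0.55 (SE 0.17, limma adjusted p = 0.314). The last was 0.19 with values under background left as they were, and -0.07 without normalization. Pde4a and Pde10a, which act on cAMP or on both nucleotides, and Pde1a were under background throughout, and Pde4b and Pde7a passed the threshold on 1 array each. Of the Pde6 genes, known from photoreceptors, Pde6a was under background throughout, Pde6b passed it on 1 array and Pde6g on 2. Pde6d, a carrier of prenylated proteins, passed it on 3, at intensities of 14 (PAR1-/-, saline), 23 (WT, LPS at 4 h) and 28 (WT, SP at 4 h).

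Protein kinase A was seen through a regulatory subunit. Prkar1b, known mainly from neurons, had normalized levels of 86.8 and 77 after LPS at 24 h and 4 h, 97.5 and 57.6 after SP, and 141 after saline in PAR1-/- bladders. WT bladders had 149 and 102 after LPS, 123 and 118 after SP, and 130 after saline. The challenged PAR1-/- arrays, at 0.407 to 0.689 of their saline array, did not overlap with the challenged WT arrays, which lay at 0.788 to 1.14 of theirs. After saline the level was 1.09 times as high in PAR1-/- as in WT bladders.

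The genotype difference of Prkar1b over the 5 pairs was -0.49 (SE 0.22, limma adjusted p = 0.379) and did not pass. The genotype test called none of the 22 members and 0% of all 2017 probes. Without normalization the difference of Prkar1b was 0.01, since its intensities were 109, 96, 133, 145 and, after saline, 54 in PAR1-/- bladders and 126, 108, 55, 246 and, after saline, 57 in WT bladders, with wide overlap. The catalytic subunits were barely seen: Prkaca reached 26 on the 4 h LPS array of WT bladders and at most 16 elsewhere, and Prkacb was under background on all arrays.

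The phospholipases C, which split a membrane lipid into IP3 and diacylglycerol, gave a single value above background among the 2 genes with intensities. Plcb3, an isoform that Gq activates, reached 28 on the 4 h SP array of PAR1-/- bladders and at most 18 elsewhere, and Plcg1 was under background on every array. The IP3 receptors, which release stored calcium, and the arrestins were not analysed here.

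Of 7 protein kinase C genes 5 were tested and 3 were above background on all arrays. Prkcb, a conventional isoform that calcium and diacylglycerol activate, had normalized levels of 163 and 161 after LPS at 24 h and 4 h, 136 and 176 after SP, and 219 after saline in PAR1-/- bladders. Those of WT bladders were 157 and 102 after LPS, 363 and 123 after SP, and 307 after saline. In both genotypes the challenged arrays were under saline with the exception of the 24 h SP array of WT bladders, the highest of the 10. Without normalization the direction turned in PAR1-/- bladders, with ratios to saline of 2.95 and 2.79 with LPS and 2.51 and 6.58 with SP. The WT ratios were then 1.13 and 0.923 with LPS and 1.17 and 2.21 with SP. There the direction turned for LPS at 24 h and SP at 4 h only. The challenge difference was -0.69 (SE 0.36, limma adjusted p = 0.523) and did not pass.

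Prkcd, an isoform that diacylglycerol activates without calcium, was the 1 member besides Adcy6 that lay above saline in all 8 comparisons. Its normalized levels were 95 and 98 after LPS at 24 h and 4 h, 84.4 and 66.1 after SP, and 60.2 after saline in PAR1-/- bladders. In WT bladders they were 92.2 and 91.3 after LPS, 94.3 and 116 after SP, and 75.2 after saline. The ratios were 1.10 to 1.63 in PAR1-/- and 1.22 to 1.54 in WT bladders. The challenge difference was 0.44 (SE 0.28, limma adjusted p = 0.681) and did not pass.

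Prkch, of the same class, had normalized levels of 67.2 and 49.3 with LPS at 24 h and 4 h, 50.4 and 54 with SP and 39.1 with saline in PAR1-/- bladders. WT levels were 55.2 and 47.3 with LPS, 69.4 and 45.5 with SP and 58.1 with saline. Prkch thus lay above saline on all 4 PAR1-/- arrays, at 1.26 to 1.72 times its level, and on both sides of it in WT bladders, at 0.784 to 1.20. Without normalization its ratios were over 1 in both genotypes, from 1.17 to 7.11. Its genotype difference was -0.09 (SE 0.22, limma adjusted p = 0.857).

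Prkci, an atypical isoform that needs neither calcium nor diacylglycerol, had the largest genotype difference of the 22 members, at -0.71 (SE 0.25, limma adjusted p = 0.324). Its intensities were 17 and 18 after LPS, 14 and 25 after SP and 9 after saline in PAR1-/- bladders, and 15 and 21 after LPS, 12 and 79 after SP and 16 after saline in WT bladders. It exceeded background on 4 arrays, and 1 of them, the 4 h SP array of WT bladders, was far above the others. Without the SP arrays at 4 h the difference of Prkci was -0.43 (limma adjusted p = 0.555, with a range of 0.212 to 0.646 over the conditions left out). Prkce, at -0.49 (SE 0.22, limma adjusted p = 0.379), was also above background on 4 arrays, at intensities of 20 and 20 (PAR1-/-, LPS at 4 h and SP at 24 h) and 30 and 38 (WT, LPS and SP at 4 h). Both genes were, for WT bladders 24 h after LPS, under background and entered the test at that array's high threshold, a normalized level of 32.1. With values under background left as they were, the differences were -0.64 for Prkci and -0.21 for Prkce.

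Of the 6 genes of calmodulins and their kinases 4 were under background on every array. Calm2, Calm3 and Calm4, of which the genes Calm2 and Calm3 encode calmodulin, were among them, as was Camk2b. Camk2a, a calmodulin-dependent kinase best known from neurons, had intensities of 43 and 51 after LPS at 24 h and 4 h, 46 and 97 after SP, and 23 after saline in PAR1-/- bladders. The WT values were 15 and 31 after LPS, 18 and 49 after SP, and 17 after saline. The PAR1-/- array was the higher in each of the 5 conditions, before and after normalization, and the genotype difference was 0.45 (SE 0.20, limma adjusted p = 0.379), which did not pass.

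Camk4 was above background on 2 arrays, at 20 on the 24 h SP array of PAR1-/- bladders and 61 on the 4 h LPS array of WT bladders, where its normalized level was at least 2.75 times that of saline. Ppp3cc, a catalytic subunit of calcineurin, the phosphatase that calcium and calmodulin activate, had intensities of 11 and 46 with LPS at 24 h and 4 h, 37 and 43 with SP and 12 with saline in PAR1-/- bladders. WT intensities were 15 and 23 with LPS, 12 and 24 with SP and 13 with saline. The 3 high values were all of PAR1-/- bladders, though LPS at 24 h was under background there, and Ppp3cc had a genotype difference of 0.21 (SE 0.25, limma adjusted p = 0.689). Both genotypes were under background with LPS at 24 h, so that pair compared thresholds alone. These were normalized levels of 18.8 in PAR1-/- and 32.1 in WT bladders, which lowers the difference. Prkcsh, which shares its symbol's first letters with protein kinase C but encodes a glucosidase subunit, passed the threshold on 1 array.

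**Figure D3:**
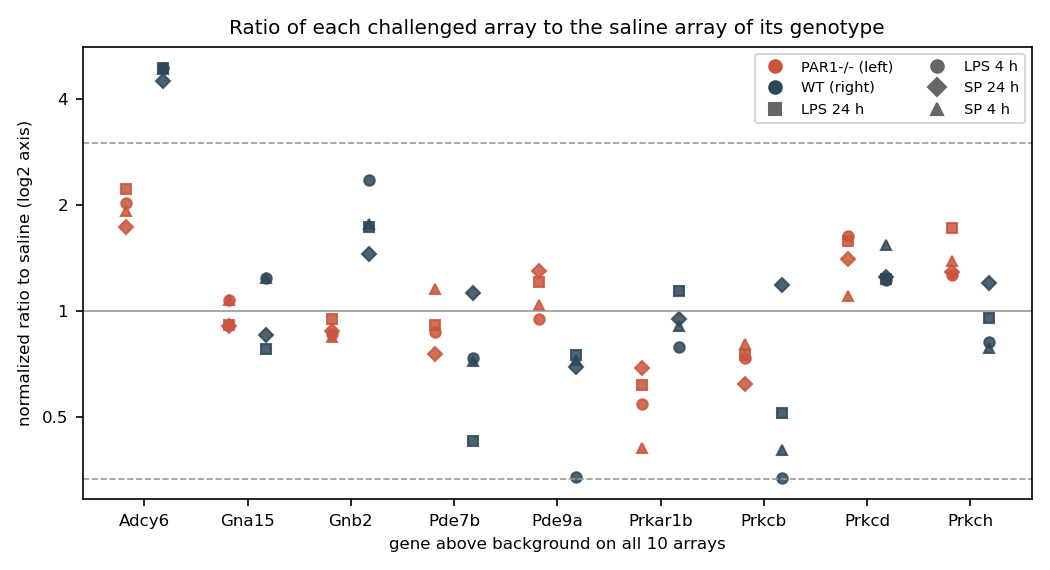
Normalized ratio of each challenged array to the saline array of its genotype for the 9 members above background on all arrays (log2 axis; PAR1-/- left and WT right of each gene's tick; dashed lines at 3-fold higher and 3-fold lower). The 4 WT ratios of Adcy6, 4.49 to 4.91, lie above the upper line, and Prkcb and Pde9a come closest to the lower one at 0.334 and 0.336.

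A 3-fold change against saline was rare among the members. In PAR1-/- bladders none of the 19 members with a ratio or bound exceeded it after LPS at 24 h, none of 18 after LPS at 4 h, none of 19 after SP at 24 h and none of 16 after SP at 4 h. The shares over all probes were 1.31%, 1.83%, 1.57% and 1.28% in these comparisons, at which less than 1 member would be past it. In WT bladders 1 of 10 members exceeded it with LPS at 24 h (1.60% of all probes), 1 of 32 after LPS at 4 h (5.46%), 1 of 20 after SP at 24 h (0.772%) and 1 of 21 after SP at 4 h (4.68%), and each time it was Adcy6. No member fell under saline by more than 3-fold in any comparison, the nearest being Prkcb at 0.334 and Pde9a at 0.336, both on the 4 h LPS array of WT bladders.

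The members' median ratios lay on both sides of those of all probes. Adcy7, Camk2a, Gnb2, Gng2, Pde6d, Prkar1b and Prkcb lay under saline in all 4 PAR1-/- comparisons, but without normalization all 7 lay over it in all 4, with the exception of Pde6d after LPS at 4 h (0.786). The members' median was 0.976 after LPS at 24 h and 0.881 after LPS at 4 h in PAR1-/- bladders, where that of all probes was 1.00 and 0.960. After SP it was 0.877 at 24 h and 0.935 at 4 h, with 0.985 and 0.888 over all probes. In WT bladders the members' medians were 0.907 and 1.04 for LPS and 1.03 and 0.784 for SP, with 0.917, 1.10, 0.996 and 0.928 over all probes. The largest gap was on the 4 h SP array of WT bladders, where 7 of 21 members (33.3%) were over saline against 46.2% of all probes.

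The genotypes, times and stimuli gave no call among the members. In PAR1-/- against WT bladders 7 of the 22 members were higher and 15 lower, with a median difference of -0.11, which was also the median of all 2017 probes. Prkci, Camk2a, Prkce and Prkar1b were at an unadjusted p under 0.05 (4 of 22, 18.2%, against 12.9% of all probes), and the lowest limma adjusted p was 0.324. The test of 24 h against 4 h called 0% of all probes and none of the members, whose lowest limma adjusted p was 0.314. Gng4, Pde1b and Adcy7 were the members at an unadjusted p under 0.05 there, with differences of 0.58, 0.55 and 0.45, all of which turned negative without normalization. With values under background left as they were, the differences were 0.33, 0.19 and 0.15, in this order. Outside the SP pair of WT bladders, Adcy7 was under background on both arrays of each pair. Those pairs compared only the thresholds to which its values were raised.

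The test of LPS against SP called 0.0496% of all probes, a single one, and none of the members. Adcy9 and the rod alpha subunit Gnat1 had the lowest p of the members, with differences of 0.69 and 0.51 (SE 0.22 and 0.20, limma adjusted p = 0.319 for both). Both were near background, above it on 4 and 5 arrays. Each was under it on both WT arrays at 24 h, where the pair compared thresholds alone. With values under background left as they were, the differences were 0.43 for Adcy9 and 0.46 for Gnat1.

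**Figure D4:**
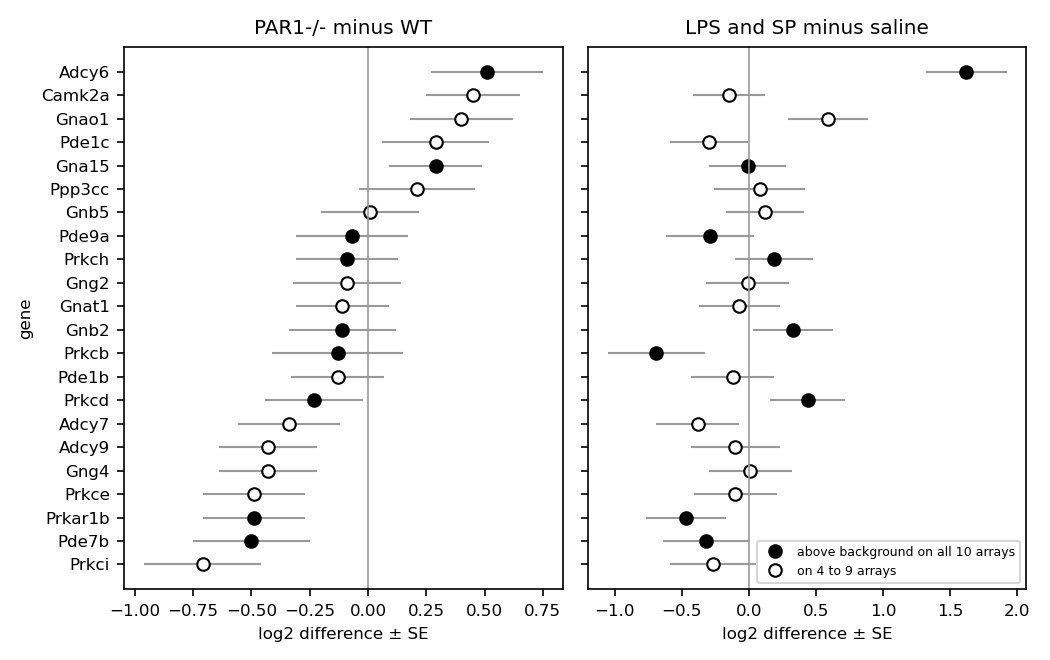
Log2 differences with SE from limma for the 22 tested members, PAR1-/- minus WT on the left and LPS and SP minus saline on the right. Filled points were above background on all 10 arrays and open points on 4 to 9; the 1 member past an adjusted p of 0.05 is Adcy6 on the right, at 1.62.

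The listed genes around these members described here gave no call in any of the 5 tests. Of 7 listed receptors of thrombin, tryptase and SP 5 were on the array and 1 was tested, F2rl3, the gene of PAR4, with a challenge difference of -0.22 (unadjusted p = 0.49). Tacr1, the SP receptor, reached 70 on the 4 h SP array of WT bladders and stayed under background on the other 9 arrays.

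Of 21 listed cAMP effectors and CREB genes 12 were on the array and 5 were tested. Atf1, a CREB family factor that was above background on all arrays, had intensities of 80 and 60 after LPS at 24 h and 4 h, 80 and 118 after SP, and 39 after saline in PAR1-/- bladders. WT bladders had 83 and 48 after LPS, 46 and 218 after SP, and 37 after saline. The genotypes overlapped, and the challenge difference was -0.34 (unadjusted p = 0.316) on the normalized scale, so that Atf1 was not called beside Adcy6.

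Of 22 listed genes of calcium stores and calcium binding 17 were on the array and 6 were tested. Atp2a3, a calcium pump of the endoplasmic reticulum, had intensities of 24 and 30 after LPS, 20 and 74 after SP and 14 after saline in PAR1-/- bladders, and of 15 and 108 after LPS, 19 and 130 after SP and 11 after saline in WT bladders. It was the 1 gene of that list at an unadjusted p under 0.05 between genotypes, the WT arrays at 4 h being the high ones. Of 17 listed genes of the cGMP pathway 9 were on the array and 5 were tested, with none at an unadjusted p under 0.05 for genotype or challenge.

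Promoters are shown for the members that lay above saline in all 4 WT comparisons, Adcy6, Gnb2 and Prkcd, of which the RefSeq promoters of build GRCm38.p6 held Gnb2 and Prkcd. Prkcd has 2 entries. Each line gives the 250 bases before an annotated start, read 5′ to 3′ on the gene's strand, with matches to the motifs in capitals. Gnb2 lies on the minus strand (chr5:137533307-137533556), as do the Prkcd starts (chr14:30610311-30610560 for the downstream and chr14:30626209-30626458 for the upstream start).
Gnb2: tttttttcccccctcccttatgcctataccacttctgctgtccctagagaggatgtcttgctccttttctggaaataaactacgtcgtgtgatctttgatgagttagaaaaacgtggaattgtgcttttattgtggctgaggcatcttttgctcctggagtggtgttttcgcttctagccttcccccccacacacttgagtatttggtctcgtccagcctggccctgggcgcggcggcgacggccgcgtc
Prkcd, downstream start: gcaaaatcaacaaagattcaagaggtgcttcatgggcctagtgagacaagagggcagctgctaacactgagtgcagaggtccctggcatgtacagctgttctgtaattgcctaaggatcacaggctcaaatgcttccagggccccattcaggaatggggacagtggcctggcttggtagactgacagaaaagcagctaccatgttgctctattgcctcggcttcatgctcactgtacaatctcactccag
Prkcd, upstream start: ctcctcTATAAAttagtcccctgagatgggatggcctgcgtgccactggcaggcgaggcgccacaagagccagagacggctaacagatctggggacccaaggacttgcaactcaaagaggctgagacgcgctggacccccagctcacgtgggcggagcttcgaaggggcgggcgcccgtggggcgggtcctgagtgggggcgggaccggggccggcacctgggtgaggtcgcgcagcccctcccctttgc
The motifs searched on both strands were the cAMP response element TGACGTCA, the AP-1 motif TGANTCA and the TATA box TATAAA, none of which contains another. The single match was a TATAAA before the upstream start of Prkcd. Over all 32851 RefSeq promoters, 1.55% held the cAMP response element, 6.75% the AP-1 motif and 12.4% the TATA box. A match is a run of letters and says nothing of whether a factor binds there.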

How the data were processed

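Radioactively labelled cDNA was hybridised to Clontech Atlas plastic arrays of mouse genes, whose spots the authors quantified with AtlasImage. The authors deposited 1 score per probe and array: its log2 has a mean of 0 and an SD of 0.3333 to 0.3334 over the 10 arrays of a probe, so it is a standardised value and not an intensity. This was read from the values, and the tests planned for intensities were run on whole-number intensities, recovered as the smallest whole numbers up to 3000 that give a probe's 10 scores with 0.01 chance matches as the limit for keeping them (95.2% of probes were kept). A common factor of a probe's values cannot be recovered and was taken as 1. Ratios without normalization do not depend on it. Background calls and normalized levels, ratios and differences do, since the regression slopes of the arrays ran from 0.81 to 1.16.

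Background was taken from the kernel density peak (mode) of each array and the SD of what lay below that peak, and its upper limit was set 3 SD over the peak. For normalization, the log2 intensities of each array were regressed robustly (rlm, MASS 7.3.60.0.1, R 4.3.3) on their mean across arrays, using 505 probes above background everywhere. Values under background were raised to the threshold for tests and ratios. The 2017 probes that exceeded background on 4 or more arrays entered limma 3.58.1 (two-sided, Benjamini-Hochberg adjusted over all of them) for genotype (5 pairs of matched conditions), time and stimulus (4 pairs each), challenge against saline, and their interaction. Where 1 of the values was under background a ratio is a bound, and where both were there is none. Each condition is 1 pool, so p-values use the spread between conditions, and arrays give no counting error.

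Groups came from the submitters' design text. Genes named in the text are those past an adjusted p of 0.05 or a 3-fold ratio, those of highest level, the 2 tested members of each role with the largest genotype difference and the known partners of PAR1 and the SP receptor; the others named were chosen after their values were seen. The members and lists were chosen with earlier results of these data known. Alternatives changed the normalization, the background threshold, the filter, the prior variance, the fold and the arrays used. Probe names came from the platform annotation, in which 4633 probes have 1 gene, 5 several and 392 none, and the Entrez IDs of all 68 member probes are in the RefSeq table. The result of 1 further gene list is not reported here.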

Additional observations from a re-analysis of the deposited data

Results flagged for a closer look

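After normalization Gnb2 moved in opposite directions in the genotypes: the highest of its 4 normalized PAR1-/- ratios to saline was 0.946 and the lowest of its 4 WT ratios 1.45. Without normalization the ratios of both genotypes were all over 1, from 1.38 to 5.94. After saline the normalized level was 1.64 times as high in PAR1-/- as in WT bladders. The WT saline intensity was 16, near that array's background threshold of 12.5. The difference of direction was not tested by itself, and the interaction fit for Gnb2 did not pass (limma adjusted p = 0.984).

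For 3 member probes without accepted intensities, the deposited scores of the 8 challenged arrays had medians above both saline arrays of the probe: 1.062 for Plcd1 (saline 0.740 in PAR1-/- and 0.769 in WT bladders), 1.086 for Rgs17 (0.780 and 0.724) and 1.152 for Rgs4 (0.728 and 0.728). These scores are not normalized between arrays. The best whole numbers for Rgs4 had 0.0113 matches expected by chance, over the limit of 0.01, and would give it normalized ratios to saline of 3.99 and 2.97 after LPS at 24 h and 4 h and 5.64 and 3.59 after SP in PAR1-/- bladders, and of 1.41 and 6.81 after LPS and 1.68 and 5.23 after SP in WT bladders.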

How the results depend on the processing

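Genotypes, times and stimuli were compared in pairs of matched conditions, while pairing by mouse was not possible because each array held RNA pooled from 8 bladders. Members called by the challenge test numbered 1, against 5 without normalization and 0 with arrays shifted to 1 median, with values under background left as they were, with a trended prior variance and with the deposited scores (0 to 1 when pairs of arrays were left out). The genotype test called 1 member, Prkci, after the median shift (-1) and 1 without the filter on background (-0.71). Without that filter the time test called 44 and the stimulus test 36, and with a trended prior 2 and 1. Without normalization 14 members passed 3-fold higher in PAR1-/- and 11 in WT bladders, and with Rgs4 at its best whole numbers 1 and 2. At 2-fold in place of 3-fold 1 was higher and 3 lower in PAR1-/-, and 3 higher and 4 lower in WT bladders. Past 3-fold lower were 2 in PAR1-/- and 2 in WT bladders after the median shift, and 2 in WT bladders with the threshold at 2 SD. Signs turned for Prkar1b between genotypes (0.01 without normalization, 0.01 on the scores), for the times of Adcy7 (-0.19 and -0.45), Gng4 (-0.09 and -0.15) and Pde1b (-0.07 and -0.22), and for the PAR1-/- ratios of Gnb2 (2.27, 2.14, 2.27 and 4.32 without normalization). The PAR1-/- ratios of Adcy7, Camk2a, Gng2, Prkar1b and Prkcb turned from under to over saline without normalization as well. Causes were not tested. Of the single-gene values followed through all alternatives, 161 kept their direction and side of the threshold. Another 16 passed a threshold they had not passed before, and 5 no longer passed one. The 12 that turned were those of Prkar1b, Adcy7, Gng4, Pde1b and Gnb2 given above. Members near background carry no measurable difference at this signal.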
